A study of Mus musculus with 30 samples.

Results

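The interferon response genes described here are 39 genes that cells switch on after interferon or use to receive and pass on its signal. They were found by gene symbol among the 17562 genes of the count table. All 39 had a row and all 39 passed the filter on low counts. Their level was followed by RNA sequencing in haematopoietic stem cells, the cells from which all blood lineages arise, sorted from bone marrow of mice that were all male. Young mice were 8 to 12 weeks old, old B6 mice 22 months and old BoyJ mice 21 months at the procedure. BoyJ is a congenic partner of B6 that carries another form of the leukocyte surface protein CD45, so that cells of both strains can be told apart in 1 animal.

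The 7 conditions were built from 11 labelled groups. Unjoined controls were young (3 B6 in YB6CNT, 4 BoyJ in YBJCNT) or old (3 B6 in OB6CNT, 1 BoyJ in OBJCNT). Isochronic mice were joined by parabiosis, a surgical sharing of the circulation, to a partner of their own age, and were young (2 B6 in YISOB6, 2 BoyJ in YISOBJ) or old (5 B6 in OISOB6, 1 BoyJ in OISOBJ). Heterochronic mice had a partner of the other age, and the sampled cells came from the young BoyJ partner (3 samples in YHETBJ) or the old B6 partner (4 in OHETB6). OHETB6X held 2 samples of old B6 stem cells that had lodged in the marrow of the young partner. The young heterochronic condition was therefore BoyJ alone and both old heterochronic conditions were B6 alone, and which mice formed a pair is not given in the labels.

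Type I interferons bind the receptor pair Ifnar1 and Ifnar2, and the signal passes to Stat2 and Irf9, which act in the nucleus at the interferon-stimulated response element. Irf1 and Irf7 carry and amplify the response. The target genes encode RNA sensors, antiviral effectors, guanylate-binding proteins and the ubiquitin-like protein Isg15 with the enzymes around it, among them Usp18, which removes Isg15 from proteins and dampens receptor signalling. Stem cells are known to keep a set of these genes switched on without infection, and interferon is known to drive resting stem cells into division.

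The count table and the sample labels conflict for part of the libraries, which bears on every value below. For 10 of the 29 columns used, the library code in a sample's title and the column name in its description lead to different samples. The values below match columns by title, and a further set was fitted on the 19 libraries on which both labels meet (4 young unjoined, 3 young isochronic, 2 young heterochronic, 4 old unjoined, 4 old isochronic and 2 old heterochronic). Neither OHETB6X library is among these 19. YHETBJ replicate 2 has no column under the title rule, and 1 column was not used. The 29 libraries held 7659468 to 30932977 estimated counts, and libraries are named by group and replicate number. Several libraries stood apart in other genes. The summed level of 20 immediate early genes, which respond within minutes to stress, was 4223, 4407 and 4760 CPM (counts scaled to a common library size) in the 3 OB6CNT libraries and 4434 CPM in OHETB6X replicate 1, against 375 to 1829 CPM in the other 25. OHETB6X replicate 1 was also the shallowest library and held 2531 CPM of 8 neutrophil genes, against 2.04 to 740 CPM elsewhere. The summed level of 12 stem cell genes was 2973 to 4644 CPM, so the labelled cell type had its markers in every library. YISOB6 replicate 1 held 9160 CPM of 20 cell cycle genes, against 1517 to 5029 CPM elsewhere.

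Promoter sequences are shown for 4 members because the response element is often found in DNA just before the gene start: Ifitm3 and Gbp2, which recur in the results below, and Isg15 and Ifit1, typical interferon targets with several matches. RefSeq sequences (build GRCm38.p6) were matched by symbol for 30 of the 39 members, in 37 windows of 250 bases before an annotated start. The 9 members without a window were Parp14, Mx1, Parp9, Usp18, Ifi27, Oas2, Dhx58, Rtp4 and Gbp10. The core of the response element was searched on both strands as GAAA, any 2 bases and GAAA again, where matches may overlap each other, and no other motif was searched. It was present in 10 of the 37 windows (27%) and in 978 of all 32851 windows of the same length (2.98%). In the sequences below, written 5′ to 3′ on the strand of the gene, capitals mark the match.
Ifitm3, chr7:141010745-141010994, minus strand: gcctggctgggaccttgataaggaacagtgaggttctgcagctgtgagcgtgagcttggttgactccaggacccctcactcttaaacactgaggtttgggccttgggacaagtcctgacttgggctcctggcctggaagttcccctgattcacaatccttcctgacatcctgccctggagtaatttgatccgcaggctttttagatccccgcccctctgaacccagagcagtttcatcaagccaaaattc
Gbp2, chr3:142620413-142620662, plus strand: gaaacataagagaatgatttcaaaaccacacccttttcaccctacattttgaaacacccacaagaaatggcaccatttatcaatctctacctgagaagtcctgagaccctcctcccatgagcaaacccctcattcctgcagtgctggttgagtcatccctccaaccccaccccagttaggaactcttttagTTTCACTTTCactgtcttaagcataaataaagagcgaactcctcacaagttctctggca
Isg15, chr4:156200819-156201068, minus strand: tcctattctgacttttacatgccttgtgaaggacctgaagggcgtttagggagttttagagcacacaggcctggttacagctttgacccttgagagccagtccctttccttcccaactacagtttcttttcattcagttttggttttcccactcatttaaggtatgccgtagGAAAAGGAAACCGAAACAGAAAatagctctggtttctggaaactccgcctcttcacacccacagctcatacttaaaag
Ifit1, chr19:34640639-34640888, plus strand: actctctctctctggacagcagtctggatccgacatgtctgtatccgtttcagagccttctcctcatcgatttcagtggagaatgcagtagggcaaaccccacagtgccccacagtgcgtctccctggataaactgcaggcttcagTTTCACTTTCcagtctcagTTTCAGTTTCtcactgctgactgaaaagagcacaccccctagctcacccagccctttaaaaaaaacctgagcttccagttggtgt
Isg15 held 3 overlapping matches, the nearest ending 56 bases before the start. Ifit1 held 2 matches, with 75 bases between the nearer one and the start, and Gbp2 held 1, with 49 bases. These letters were not present in the Ifitm3 window. The other members with a match were Gbp7, Oas3, Oas1a, Bst2, Stat2, Rsad2 and Ifit3.

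The interferon response genes were transcribed in the stem cells of every condition, over a wide range of levels. Compared per kilobase of exons, Ifitm3 (chr7:141009586-141010770 in GENCODE on GRCm38), which encodes a membrane protein that blocks viral entry, stood at 485 CPM per kilobase over the 29 libraries. The next member, the guanylate-binding protein gene Gbp7, stood at 49.2. The lowest were the GTPase gene Mx1 at 0.93 CPM per kilobase, Gbp10 at 1.13 and Ifit3 at 1.56. The 39 genes together took 0.267% to 0.329% of the counts of a library, and 37 to 39 of them had at least 1 count in each library.

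**Figure D1:**
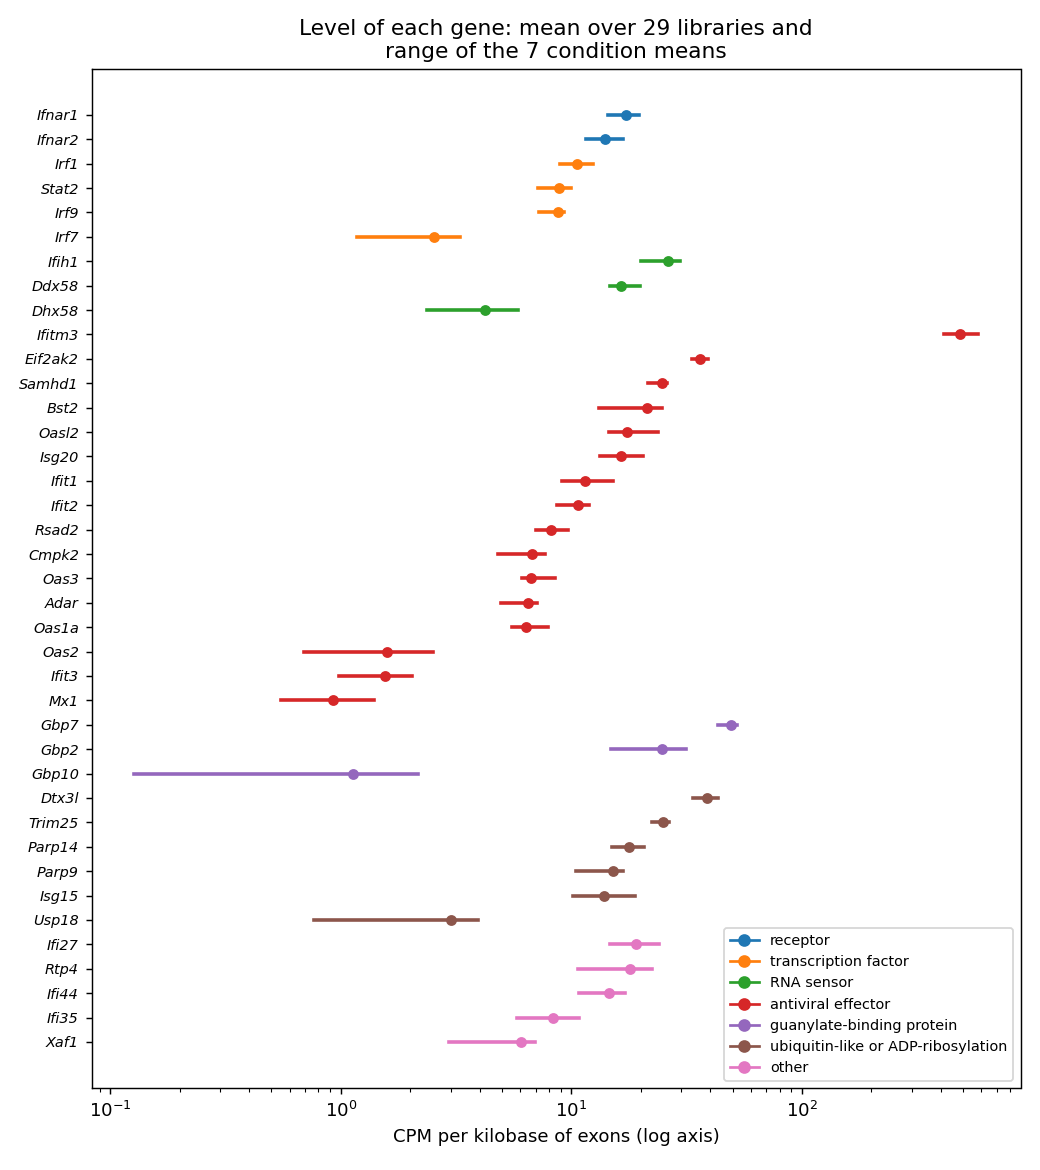
Level of each of the 39 genes in CPM per kilobase of merged exons (log axis), coloured by role; points are means over 29 libraries and bars span the lowest to the highest of the 7 condition means. Ifitm3 at 485 lies far to the right of Gbp7 at 49.2, and the longest bar is that of Gbp10.

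Among the receptors, Ifnar1 averaged 85.7 to 117 CPM and Ifnar2 38.6 to 55.7 CPM over the 7 conditions. Neither passed the test in any comparison. For Ifnar1, old minus young unjoined cells differed by 0.15 on the log2 scale and old minus young isochronic cells by 0.15, while for Ifnar2 these differences were -0.09 and -0.33. The transcription factors Stat2 and Irf9 averaged 42.4 to 59.2 CPM and 38.9 to 50.3 CPM. Irf7, the factor that amplifies the interferon response, was low and scattered, with condition means between 4.43 ± 2.24 CPM (SD, n = 2) in young heterochronic cells and 12.4 ± 2.42 CPM (SD, n = 2) in OHETB6X. Of the RNA sensors, Ifih1 (MDA5) averaged 163 to 241 CPM and Dhx58 7.76 to 19.2 CPM.

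Isg15 was at a low level and differed widely between libraries of 1 condition. It was 9.15, 4.77, 5.39 and 12.5 CPM in the 4 old unjoined libraries and 17.2, 2.68, 5.07 and 5.89 CPM in the 4 old heterochronic libraries. In old isochronic cells it ranged from 8.44 to 20.7 CPM with a median of 13.2. These groups overlapped, with the lowest values in old heterochronic cells and the highest in old isochronic cells.

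The mean log2 CPM of the 39 genes moved little between conditions. It was 5.30 ± 0.11 (SD, n = 7) in young unjoined, 5.12 ± 0.11 (n = 4) in young isochronic and 5.18 ± 0.02 (n = 2) in young heterochronic cells. In old cells it was 5.32 ± 0.10 (n = 4) unjoined, 5.35 ± 0.15 (n = 6) isochronic, 5.12 ± 0.23 (n = 4) heterochronic and 5.04 ± 0.02 (n = 2) in OHETB6X. The old heterochronic libraries split, with OHETB6 replicate 1 at 5.46 and the other 3 between 4.97 and 5.04. Gbp10 was at 0 counts in those 3 and at 5.94 CPM in replicate 1. Without Gbp10 the split was smaller but remained, with OHETB6 replicate 1 at 5.53 and replicates 2, 3 and 4 at 5.26, 5.19 and 5.25. The old heterochronic mean was then 5.31 ± 0.15 (n = 4), against 5.40 ± 0.13 (n = 4) in old unjoined and 5.46 ± 0.13 (n = 6) in old isochronic cells. OHETB6 replicate 1 also held the most megakaryocyte and platelet gene counts (5 genes, 356 CPM in sum, against 53.7 to 177 CPM elsewhere) and the lowest sum of stem cell genes, 2973 CPM. Their part in the split was not tested. On the 19 libraries the old heterochronic mean was 5.00 ± 0.04 (n = 2) and the means of the other 5 conditions lay between 5.16 and 5.36. Both old heterochronic ones, OHETB6 replicates 3 and 4, were at 0 counts of Gbp10 and stood at 5.19 and 5.25 without it. Without Gbp10 the other libraries of the 19 were at 5.13 to 5.34 in young isochronic and 5.24 and 5.29 in young heterochronic cells. They were at 5.30 to 5.46 in young unjoined, 5.27 to 5.57 in old unjoined and 5.35 to 5.61 in old isochronic cells. In bulk RNA, fewer cells with a transcript and less transcript per cell cannot be told apart.

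**Figure D2:**
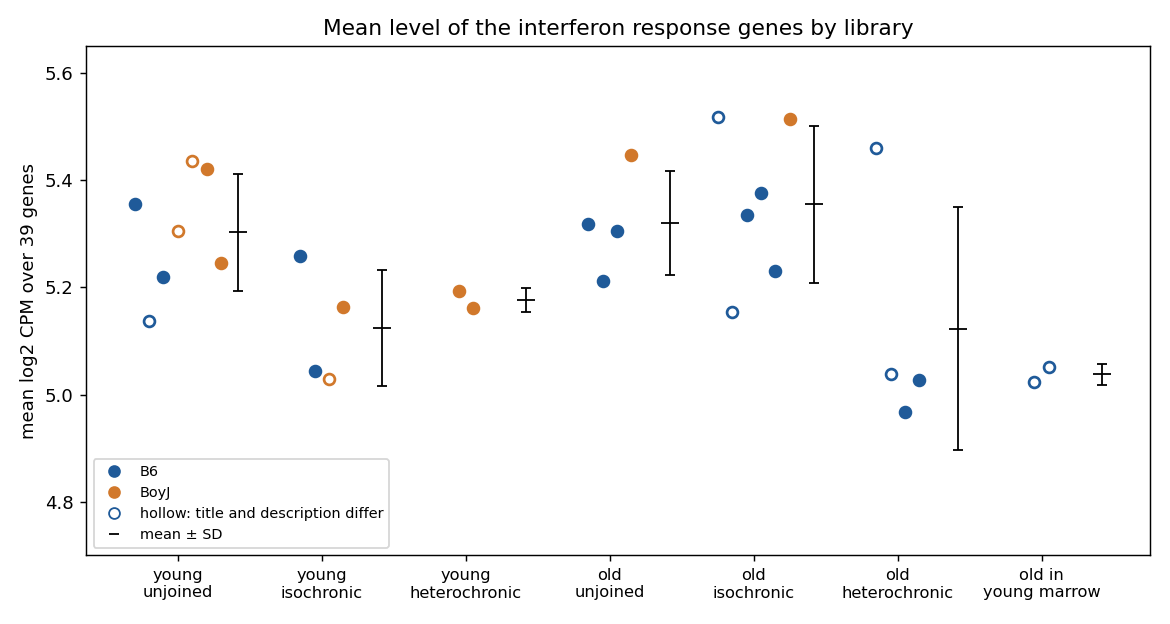
Mean log2 CPM of the 39 genes in each library, by condition (x axis), with strain as colour and hollow points for libraries whose title and description lead to different samples; bars are mean ± SD. The conditions lie between 5.04 and 5.35, and OHETB6 replicate 1 at 5.46 sits above the other old heterochronic libraries.

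The question of age was first asked in unjoined mice. Ifitm3 was higher on average in old cells, and it was the 1 member of 39 called at an adjusted p under 0.05. That is close to the share over all 16068 genes tested, of which 2.11% were called. Ifitm3 was at 299, 363, 402 and 512 CPM in old unjoined libraries, and at 229 to 382 CPM with a median of 258 in the 7 young ones. The lowest old library lay under the 2 highest young ones, both BoyJ, so the groups overlapped. The means were 394 ± 89.4 CPM (SD, n = 4) and 279 ± 55.3 CPM (SD, n = 7), and with strain in the model the log2 fold change was 0.57 (SE 0.14, adjusted p = 0.0238, edgeR quasi-likelihood F-test with Benjamini-Hochberg adjustment over all genes).

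This call rested on single libraries. Leaving out 1 library kept the log2 fold change between 0.45 and 0.66, but the adjusted p was 0.0532, 0.0628 and 0.0671 without YB6CNT replicate 1, 2 or 3, 0.0518 and 0.104 without OB6CNT replicate 2 or 3, and 0.254 without OBJCNT replicate 1 (edgeR). On the 19 libraries the Ifitm3 log2 fold change was 0.57 with an adjusted p of 0.112, and no member was called there, where 1.41% of genes were. Immediate early genes were high in the 3 OB6CNT libraries. Without those 3 libraries, which leaves OBJCNT replicate 1 as the 1 old unjoined library, the Ifitm3 log2 fold change was 0.82 with an adjusted p of 0.133. The summed level of 5 T and NK cell genes was 66.8 to 82.9 CPM in old and 15.9 to 41.9 CPM in young unjoined libraries, with Cd3e, Cd3g and Ncr1 not in the table, and its part in the Ifitm3 difference was not tested. In the same comparison 8 of 20 immediate early genes were called higher and 9 of 20 cell cycle genes lower in old cells, and their part was not tested either.

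The other members gave values in both directions without passing. Oas2, a synthetase of the antiviral second messenger 2-5A, was at 4.8, 2.26, 3.00 and 2.28 CPM in old unjoined libraries, all under the 7 young ones at 4.82 to 15.1 CPM. Its log2 fold change was -1.47 (SE 0.51, adjusted p = 0.167, edgeR). Rtp4, a chaperone for membrane receptors, differed by 0.62 (SE 0.24, adjusted p = 0.258) and Gbp2 by 0.43 (SE 0.19, adjusted p = 0.325). The median log2 fold change of the 39 was 0.08, with 24 of 39 above 0, against -0.02 over all genes tested. At an unadjusted p under 0.05 stood 5 of 39 members (12.8%) and 11.7% of all genes. DESeq2 called Ifitm3 and Oas2, among 3.63% of genes, and limma-voom called Ifitm3, Rtp4 and Gbp2, among 7.16%.

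**Figure D3:**
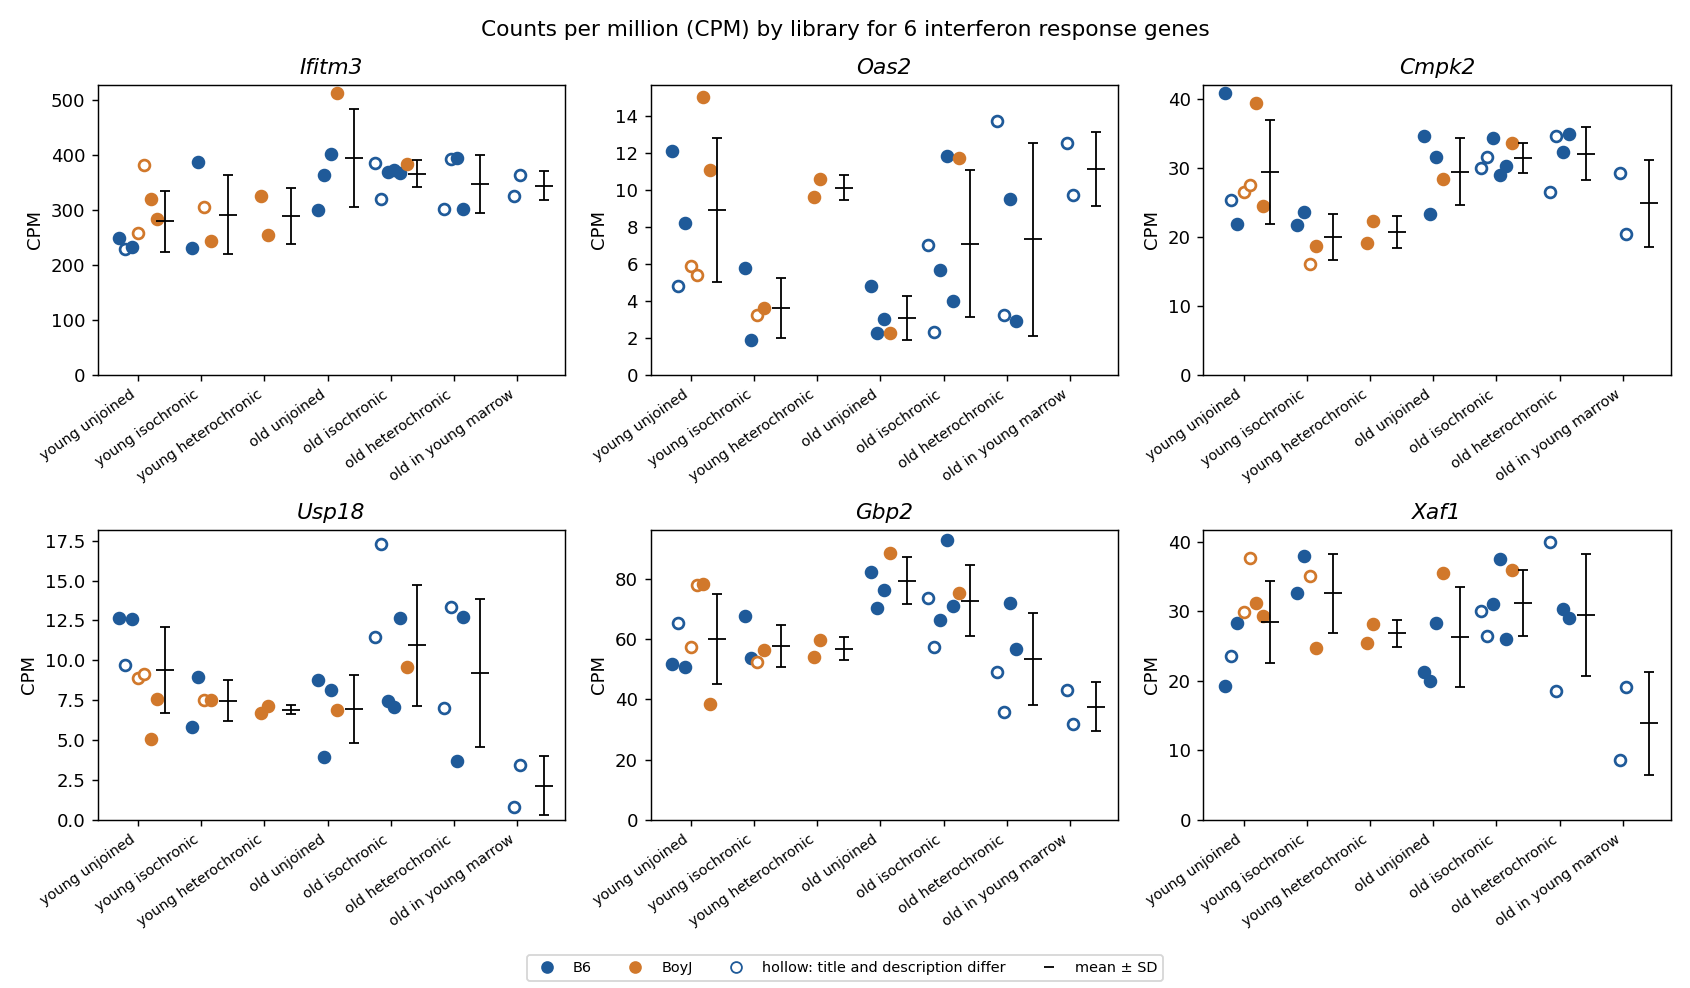
CPM per library (y axis, from 0) of Ifitm3, Oas2, Cmpk2, Usp18, Gbp2 and Xaf1 in the 7 conditions, with strain as colour, hollow points for libraries whose labels conflict and bars for mean ± SD. Usp18 in the 2 OHETB6X libraries (0.821 and 3.43 CPM) lies under every other library, and Ifitm3 is higher on average in the old conditions.

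Among isochronic mice, old against young, no member was called by edgeR, where 1.45% of genes were, and 5 of 39 (12.8%) stood at an unadjusted p under 0.05, against 13.1% of all genes. Cmpk2, a mitochondrial nucleotide kinase, was at 21.7, 23.6, 16.1 and 18.7 CPM in the 4 young isochronic libraries, and at 28.9 to 34.3 CPM with a median of 30.9 in the 6 old ones, without overlap. Its log2 fold change was 0.63 (SE 0.20, adjusted p = 0.111). DESeq2 called Cmpk2, among 3.70% of genes, and limma-voom called no member. Ifitm3 differed by 0.39 (SE 0.15, adjusted p = 0.207), at 230, 387, 305 and 243 CPM in young and 319 to 384 CPM in old isochronic cells. Without YISOB6 replicate 2, the young library at 387 CPM, that difference was 0.66 with an adjusted p of 0.0181 (edgeR). The share of all genes called in that fit is not given here. Stat2 differed by 0.52 (SE 0.19, adjusted p = 0.213) and Oasl2 by 0.44 (SE 0.18, adjusted p = 0.240). Over the 39 the median was 0.22, with 29 of 39 above 0, against 0.00 over all genes. Of the 16 antiviral effectors, 14 were above 0, with a median of 0.36. The 5 T and NK cell genes summed to 42.3 to 69.2 CPM in old and 19.1 to 43.7 CPM in young isochronic libraries. All 20 cell cycle genes were below 0, with Tpx2 and Aurkb called lower, and all 20 immediate early genes above 0, with none called. The part of these genes in the values of the 39 was not tested. Without YISOB6 replicate 1, the library with the most cell cycle counts, the median of the 39 was 0.26, with 30 of 39 above 0. On the 19 libraries the median of the 39 was 0.14, and Cmpk2 differed by 0.58 (adjusted p = 0.361).

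Joining to a partner of like age was compared with no joining. No member was called by edgeR, DESeq2 or limma-voom in young or in old mice, where 0% of genes were called by edgeR. In young mice 2 of 39 members stood at an unadjusted p under 0.05, against 10.2% of all genes. They were Cmpk2, at -0.56 (SE 0.19, adjusted p = 0.347), and Oas2, at 5.78, 1.88, 3.22 and 3.62 CPM in young isochronic cells (-1.29, SE 0.49, adjusted p = 0.399). The median of the 39 was 0.01, while their mean log2 CPM was lower by 0.18 after joining, so median and mean differ in sign. Oasl2 and Stat2 followed, at -0.31 (adjusted p = 0.535) and -0.32 (adjusted p = 0.557).

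In old mice 2 of 39 members stood at an unadjusted p under 0.05, against 4.21% of all genes. Oas2 was higher by 1.18 (SE 0.50) and Isg15 by 0.94 (SE 0.44) in isochronic cells, both with an adjusted p of 1 (edgeR). Trim25, a ubiquitin ligase of the RNA sensing pathway, differed by -0.25 (SE 0.14) and Usp18 by 0.63 (SE 0.38). Over the 39 the median was 0.02, against 0.01 over all genes. The interaction, that is the effect of isochronic joining in old minus that in young mice, called no member by any of the 3 tools, where 0% of genes were called. The smallest p among the 39 was that of Oas2, which differed by 2.47 (SE 0.70, 95% interval 1.00 to 3.93, adjusted p = 0.899, edgeR). Cmpk2 (0.65, SE 0.27), Oasl2 (0.51, SE 0.24) and Stat2 (0.50, SE 0.26) came next by p, the first 2 also at an unadjusted p under 0.05. In all 3 of 39 members (7.69%) stood there, against 5.18% of all genes, and the median was 0.04, against 0.02. These comparisons share samples with those on age and are not independent of them.

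The question of whether a young partner changes old stem cells gave no call among the 39. Old heterochronic minus old isochronic cells had 0% of genes called. At an unadjusted p under 0.05 stood 1 of 39 members (2.56%), against 8.51% of all genes. That member was Gbp2, a guanylate-binding protein that attacks pathogen vacuoles, at 49.1, 35.7, 72.1 and 56.6 CPM against 57.3 to 93.1 CPM (median 72.3). The ranges overlapped, and the log2 fold change was -0.43 (SE 0.19, adjusted p = 0.537). Over the 19 libraries it was -0.24 (adjusted p = 0.764). The smallest p among the members there was that of Gbp10 (adjusted p = 0.157, edgeR), which was at 0 counts in both old heterochronic libraries of the 19. Over the 29 libraries Parp14 differed by -0.28 (SE 0.14, adjusted p = 0.594), Isg20 by 0.55 (SE 0.31, adjusted p = 0.652) and Isg15 by -0.74 (SE 0.44, adjusted p = 0.673). All 4 transcription factors were below 0, with a median of -0.25, and the median of the 39 was -0.04, against 0.03 over all genes. DESeq2 and limma-voom called no member, and leaving out 1 library gave 0 to 1 called members by edgeR.

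Against old unjoined cells, old heterochronic cells had 0.0249% of genes called, and no member was called by edgeR, DESeq2 or limma-voom. There 2 of 39 members (5.13%) stood at an unadjusted p under 0.05, against 9.77% of all genes. Gbp2 differed by -0.55 (SE 0.21, adjusted p = 0.384) and Oas2 by 1.28 (SE 0.54, adjusted p = 0.430). Ifih1 differed by 0.20 (SE 0.14, adjusted p = 0.694). The median of the 39 was 0.02, while their mean log2 CPM was lower by 0.20 in heterochronic cells. Gbp10 was at 0 counts in OHETB6 replicates 2, 3 and 4, where a count of 0 allows up to 0.236, 0.138 and 0.114 CPM (3 counts, counting error only). It was at 5.94 CPM in OHETB6 replicate 1 and at 6.33, 7.84, 8.56 and 1.56 CPM in old unjoined libraries. Over all 4 old heterochronic libraries Gbp10 was not called (adjusted p = 0.598, edgeR). Without OHETB6 replicate 1 its adjusted p was 0.0110 (edgeR). That fit drops the only old heterochronic library with Gbp10 counts, so it adds no support for a difference. The labels of OHETB6 replicate 1 conflict, but so do those of OHETB6 replicate 2, which was kept. Over the 19 libraries the adjusted p of Gbp10 was 0.0780 (edgeR). Gbp10 lies on chr5:105215699-105239533 in a cluster of similar genes, so its estimated counts depend on how reads were shared among the copies.

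Young stem cells with an old partner were compared with both young conditions, over 2 libraries. No member was called by edgeR, DESeq2 or limma-voom in either comparison, where 0% of genes were called by edgeR. Against young isochronic cells 3 of 39 members (7.69%) stood at an unadjusted p under 0.05, against 5.99% of all genes. Ifih1 was at 167 and 160 CPM against 183 to 243 CPM, without overlap (log2 fold change -0.44, SE 0.18, adjusted p = 0.803). Ifnar2 differed by -0.60 (SE 0.27, adjusted p = 0.806), Oas2 by 1.40 (SE 0.65, adjusted p = 0.808) and Dhx58 by -1.01 (SE 0.54, adjusted p = 0.852). The median of the 39 was -0.05, while their mean log2 CPM was higher by 0.05. Against young unjoined cells 2 of 39 members (5.13%) stood at an unadjusted p under 0.05, against 4.77% of all genes. Parp9, which adds ADP-ribose to its targets together with Dtx3l, differed by -0.69 (SE 0.22, adjusted p = 0.978) and Irf7 by -1.20 (SE 0.57, adjusted p = 0.978). Of the 39, 10 were above 0, against 46.6% of all genes, and the median was -0.11, against -0.03. Ifih1 and Cmpk2 followed, at -0.34 and -0.47.

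Old minus young heterochronic cells compare both partners of mixed pairs, and strain differs with age there, so the value rests on the strain term fitted in the other conditions. No member was called by edgeR, DESeq2 or limma-voom, where 0.118% of genes were called by edgeR, and 4 of 39 (10.3%) stood at an unadjusted p under 0.05, against 9.41% of all genes. Ifih1 was at 178 to 339 CPM in the 4 old and 167 and 160 CPM in the 2 young libraries, without overlap, and differed by 0.64 (SE 0.20, adjusted p = 0.266). Rtp4 differed by 1.11 (SE 0.39, adjusted p = 0.34), without overlap of the groups, Ifitm3 by 0.49 (SE 0.22, adjusted p = 0.482) and Parp9 by 0.57 (SE 0.26, unadjusted p = 0.0382). Over the 39 the median was 0.28, with 27 of 39 above 0, against 0.06 over all genes. Their mean log2 CPM, without a strain term, was lower by 0.05 in old cells, so the sign depends on the measure. On the 19 libraries Gbp10 was called (adjusted p = 0.0488), where 0.153% of genes were, since both old heterochronic libraries there are at 0 counts. Gbp10 was also called without OHETB6 replicate 1, a fit that again leaves only old heterochronic libraries at 0 counts. In the other comparisons that the 19 libraries allow, the smallest adjusted p of a member was 0.0780.

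The old B6 cells lodged in young marrow showed the lowest Usp18 of the series. Usp18 (chr6:121245906-121270917) was at 0.821 and 3.43 CPM in OHETB6X replicates 1 and 2, at 6.98, 13.3, 3.69 and 12.7 CPM in old heterochronic libraries and at 7.06 to 17.3 CPM in old isochronic ones. Both values lay under every other library. The log2 fold change was -2.05 (SE 0.57, adjusted p = 0.103) against old heterochronic and -2.35 (SE 0.57, adjusted p = 0.0674) against old isochronic cells (edgeR), neither past the threshold. In these comparisons edgeR called 0.218% and 0.187% of genes and no member, and 8 and 5 of 39 members stood at an unadjusted p under 0.05, against 13.6% and 13.0% of all genes.

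Xaf1, a gene that favours cell death, was at 8.62 and 19.1 CPM in OHETB6X replicates 1 and 2. It was at 40, 18.5, 30.4 and 29.1 CPM in old heterochronic libraries, -1.08 as log2 fold change (SE 0.32, adjusted p = 0.134), and at 26.0 to 37.6 CPM in old isochronic ones, -1.10 as log2 fold change (SE 0.31, adjusted p = 0.110). The ranges overlapped in the first comparison and not in the second. Gbp2 was at 43.2 and 31.8 CPM, under the old isochronic range, and differed by -0.95 (SE 0.25, adjusted p = 0.0934). Adar, an RNA-editing enzyme, differed from old isochronic cells by -0.45 (SE 0.20, adjusted p = 0.333). Oasl2, an antiviral relative of the oligoadenylate synthetases, lay the other way, at 174 and 128 CPM against 76.7 to 107 CPM in old heterochronic cells (0.69, SE 0.22, adjusted p = 0.161). Ifi44 was at 50.7 and 81.5 CPM against 82.9 to 125 CPM (-0.66, SE 0.25, adjusted p = 0.241). The medians of the 39 were -0.14 and -0.13, against -0.05 and -0.04 over all genes.

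These values rest on 2 libraries whose labels both conflict, and 1 of them, OHETB6X replicate 1, holds the neutrophil and immediate early genes and the least depth. Their part in the result was not tested. Without OHETB6X replicate 1 the Usp18 log2 fold change was -1.41 against old heterochronic and -1.71 against old isochronic cells. That of Xaf1 was -0.62 and -0.65. Without OHETB6X replicate 2 these values were -3.48 and -3.78 for Usp18 and -1.78 and -1.81 for Xaf1. Both fits leave 1 lodged library, whose spread is taken from the other conditions, so only the size of the difference is given. With columns matched by description, Usp18 differed by -0.14 from old heterochronic and by 0.10 from old isochronic cells. Gbp2 then differed by 0.10 and Adar by 0.0080 from old isochronic cells, and Oasl2 by -0.013 from old heterochronic cells. All but the first of these turned in sign. Under that matching, DESeq2 statistics correlated with the authors' at 0.20 and -0.03 in these 2 comparisons, against 0.89 in both by title. Which label is right was not tested. Gbp2 against old isochronic cells was -1.18 without OHETB6X replicate 1 and -0.75 without OHETB6X replicate 2.

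The tool also decided the call. DESeq2 called Usp18 and Xaf1 against old heterochronic cells, among 2.96% of genes, and Usp18, Xaf1 and Gbp2 against old isochronic cells, among 2.55%, while limma-voom called no member. The authors' deposited table of old heterochronic over lodged cells lists Usp18 (adjusted p = 0.0101) and Oasl2 (adjusted p = 0.0344) under 0.05, where 3.05% of genes were. The authors' deposited table of old isochronic over lodged cells lists Usp18 (adjusted p = 0.00193) and Gbp2 (adjusted p = 0.0234), where 2.49% of genes were. In the other 9 of the authors' deposited tables the smallest adjusted p of a member was 0.0895, for Oas2 in young unjoined over young isochronic cells.

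Strain was a term of the model. BoyJ minus B6 called no member by edgeR, DESeq2 or limma-voom, where edgeR called 0.0124% of genes, and 5 of 39 stood at an unadjusted p under 0.05 (12.8%, against 6.78% of all genes). Oasl2 had the smallest p (log2 fold change 0.40, SE 0.13, adjusted p = 0.456, edgeR). Adar differed by 0.29 (SE 0.11, adjusted p = 0.616), Isg20 by 0.53 (SE 0.23, adjusted p = 0.693), Isg15 by 0.70 (SE 0.31, adjusted p = 0.717) and Ifitm3 by 0.23 (SE 0.11, adjusted p = 0.722). The median of the 39 was 0.10, with 26 of 39 above 0 and 13 of 16 antiviral effectors among them, against 0.01 over all genes.

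**Figure D4:**
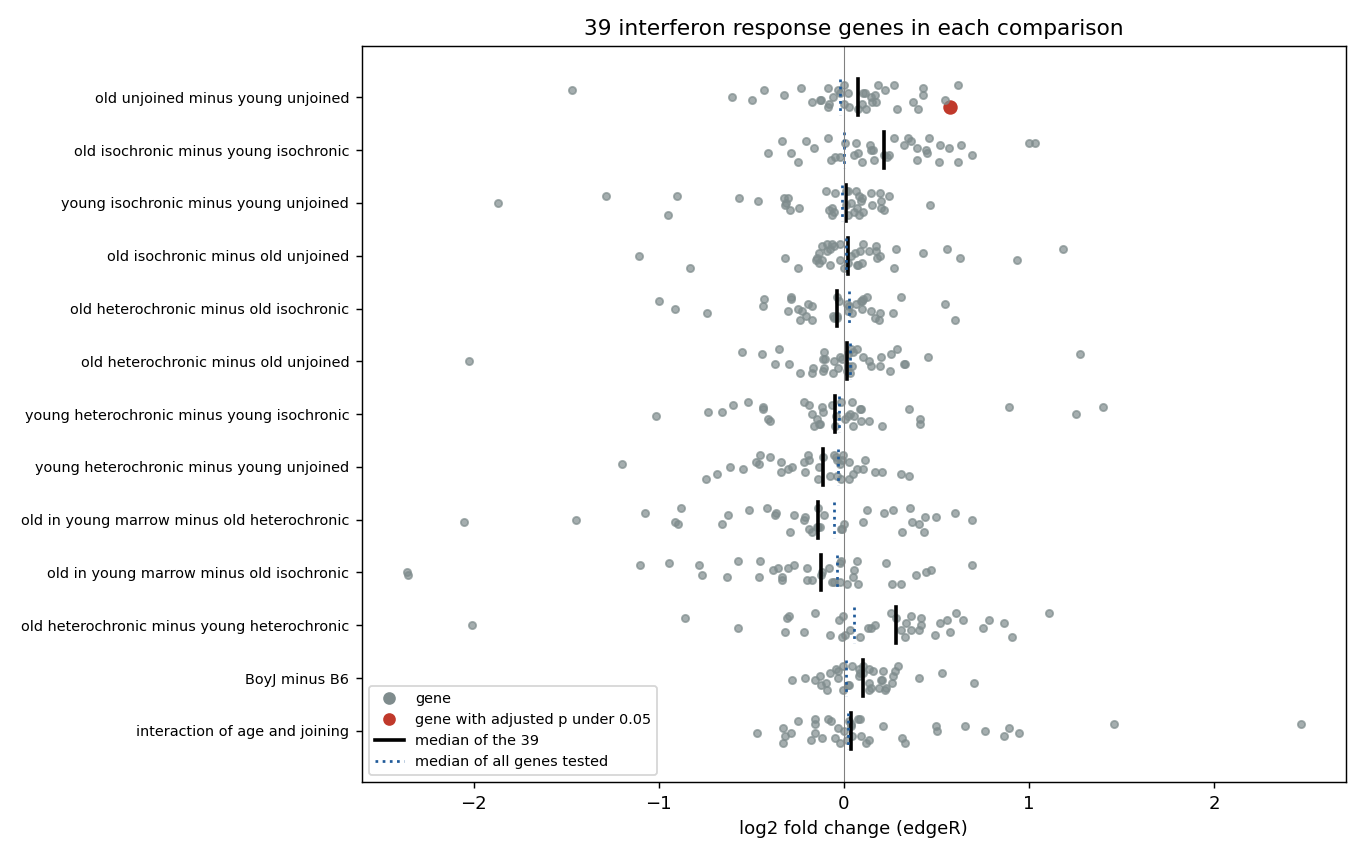
Log2 fold changes (edgeR, x axis) of the 39 genes in the 13 comparisons (rows); grey points are genes, the red point is the 1 gene with an adjusted p under 0.05 (Ifitm3, old minus young unjoined), black bars are medians of the 39 and dotted bars medians of all genes tested. The medians of the 39 lie between -0.14 and 0.28, and single low genes reach beyond 2 in either direction.

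The standard errors show how precisely each change was measured. A change well beyond its SE could still be missed, since calls are adjusted over 16068 genes. The median SE of the 39 log2 fold changes was 0.17 for BoyJ minus B6 and between 0.22 and 0.34 in the other comparisons. For Stat2 the 95% interval of old minus young isochronic cells ran from 0.11 to 0.92, without a call. For Ifitm3 of old minus young unjoined cells, which was called, it ran from 0.28 to 0.86. Over the 29 libraries, with condition and strain taken out, the median correlation of residual log2 CPM was 0.04 across the 741 pairs of members and 0.00 across all pairs of genes. A correlation over 0.5 was found for 2.83% of the pairs of members and 1.65% of all pairs, with Oas2 and Parp14 highest at 0.65. These are given as a description, since all pairs share libraries and depth.

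Genes that act beside the 39 were read from lists made with earlier results of these data known. Of 11 interferon ligand genes 3 were in the table and 1, Ifnz, passed the filter, with condition means from 0.324 to 2.01 CPM. Among 9 other receptor and signalling genes, 1 rose in old isochronic cells: Stat3, which carries signals of the interleukin 6 family (log2 fold change 0.61, SE 0.16, adjusted p = 0.0467, edgeR). It was at 148, 202, 243 and 225 CPM in young and 247 to 327 CPM in old isochronic libraries. Of the 10 single libraries of these conditions, each but OISOBJ replicate 1 ended the Stat3 call when left out (adjusted p 0.0545 to 0.241), and on the 19 libraries the adjusted p was 0.143. No other receptor or signalling gene was called in any of the 13 comparisons. Among 11 negative regulators, Socs3, a feedback inhibitor of cytokine receptors, rose with age in unjoined cells (3.19, SE 0.66, adjusted p = 0.00597) and Nlrc3, a brake on innate sensing, fell (-1.36, SE 0.37, adjusted p = 0.0478). Socs3 was at 26.5 to 31.6 CPM in the 3 OB6CNT libraries with high immediate early genes, at 5.75 CPM in OBJCNT replicate 1 and at 1.04 to 4.39 CPM in young unjoined libraries. Without those 3 libraries the Socs3 log2 fold change was 1.05 (adjusted p = 0.734), and on the 19 libraries it was 3.19 (adjusted p = 0.0407). The Nlrc3 call ended without any of 10 single libraries (adjusted p 0.051 to 0.18), YBJCNT replicate 2 being the exception, while on the 19 libraries Nlrc3 stood at -1.60 (adjusted p = 0.0141).

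Among 80 other interferon-stimulated genes tested, 2 rose with age in unjoined cells, where 2.11% of all genes were called. Phf11d was at 21.2, 21.4, 39.5 and 40.7 CPM in old and 5.58 to 15.4 CPM in young libraries (1.95, SE 0.37, adjusted p = 0.00234, edgeR). On the 19 libraries this was 2.22 (adjusted p = 0.00732), and the call held without any 1 of the 11 libraries. Lgals3bp, a secreted partner of galectins, was higher by 0.57 (SE 0.12, adjusted p = 0.00861), by 0.54 on the 19 libraries (adjusted p = 0.0443) and by 0.44 without OBJCNT replicate 1 (adjusted p = 0.15). Without the 3 OB6CNT libraries neither was called, with Phf11d at 2.12 (adjusted p = 0.129) and Lgals3bp at 0.83 (adjusted p = 0.0649). Ifitm1, the neighbour and relative of Ifitm3, differed by 0.61 (SE 0.17, adjusted p = 0.0589). The median of the 80 was 0.04 in that comparison. In lodged against old isochronic cells 1 of the 80 fell: Gbp6, at 10.4 and 16.9 CPM in OHETB6X against 30.5 to 87.9 CPM (-2.02, SE 0.34, adjusted p = 0.0139). Without OHETB6X replicate 1, which leaves 1 lodged library, the Gbp6 difference was -1.72, and the call cannot be judged there. None of 14 sensing genes tested was called by edgeR in any comparison. Several members have close relatives in the genome (Ifitm1 and Ifitm2 for Ifitm3, Ifit3b for Ifit3, further Oas1, Oas2 and Gbp genes), and Parp9 and Dtx3l overlap on opposite strands, so their estimated counts are uncertain where reads fit both.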

How the data were processed

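RNA was sequenced from sorted stem cells with a low-input library kit, per the labels' protocols. The deposited table holds estimated counts per gene, made by the authors with Salmon on GRCm38, per the submitters' processing notes. The smallest row sum in it is 11. The authors' deposited tables of their own comparisons hold log2 fold changes with their standard errors, a test score (the statistic of each gene) and p-values. They were computed with DESeq2, per the submitters' processing notes, and only their adjusted p-values and the statistic are used here.

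Columns were matched to samples by the library code in the title. DESeq2 statistics computed on title-matched columns correlated with the authors' statistics at 0.85 to 0.90 over 10 comparisons, and on description-matched columns at -0.03 to 0.75, across genes. Of 30 columns, 1 was not used. No 2 replicates of a group agreed within sampling noise (lowest chi-square per degree of freedom 21.8). The labels do not say that each sample is 1 mouse, so p-values measure the spread between these samples, which may in part be technical.

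Estimated counts were rounded and fitted with edgeR 4.0.16 (R 4.3.3): TMM scaling, filterByExpr, robust quasi-likelihood F-test, 7 conditions and strain, 21 residual degrees of freedom, 16068 genes. Adjusted p-values are Benjamini-Hochberg over all of them, called under 0.05. Standard errors of log2 fold changes were derived from each F statistic. The 95% intervals use them with 21 residual degrees of freedom, and so need not match the p-values of the F-test exactly. CPM use TMM-scaled library sizes, and log2 CPM a prior count of 2. Alternatives were DESeq2 1.42.0, limma-voom (limma 3.58.1) with sample weights, other scaling, no filter, no strain term, 1 strain, the compared conditions alone, description matching and leaving out libraries. The edgeR fit was also run on simulated counts with 1 spread shared by all genes and no library set apart. That checks the code and not what the fit can detect in these data. Named are the 4 members with the smallest p in each comparison and every called member. Members outside this rule (Ifnar1 and others named for their role) and the genes of the other lists were chosen after values were seen. The members and lists were chosen with earlier results of these data known.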

Additional observations from a re-analysis of the deposited data

Results flagged for a closer look

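A library that lay far from the others of its condition was looked for by the gap to its nearest neighbour against the range. Each set was 1 of 22 members, named for a small p or their role, or the mean of the 39, in 1 condition of 4 to 10 libraries. Such a library was found in 6 of 115 sets (5.22%), where chance gives about 1 in 20. The sets reuse the same libraries and are not independent. Dhx58, an RNA sensor, was at 33.2 CPM in YBJCNT replicate 3, against 7.89 to 16.6 CPM in the other young unjoined libraries. Parp14 was at 194 CPM in the same library, against 165 to 172 CPM in the others. Isg20, an exonuclease, was at 78.1 CPM in YBJCNT replicate 2, against 17.0 to 34.2 CPM. Ifitm3 was at 319 CPM in OISOB6 replicate 2, against 367 to 384 CPM in the other old isochronic libraries. Gbp10 was at 5.94 CPM in OHETB6 replicate 1, against 0 in the other 3 old heterochronic libraries. The mean log2 CPM of the 39 genes was 5.46 in the same library, against 4.97 to 5.04 in the other 3.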

How the results depend on the processing

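The number of the 39 genes called in old against young unjoined cells was 1 as reported. It was 0 on the 19 libraries whose labels meet, 0 with columns matched by description, 0 without a strain term, 0 with B6 alone and 0 without the 3 OB6CNT libraries (an alternative chosen after seeing the data), 2 with DESeq2 and 3 with limma-voom. It ranged from 0 to 2 when 1 library was left out, and was 2 without YBJCNT replicate 2, where Rtp4 joined Ifitm3. In the other comparisons 0 were called as reported. DESeq2 called 1 in old against young isochronic cells, 2 in lodged against old heterochronic cells and 3 in lodged against old isochronic cells, and the 19 libraries gave 1 in old against young heterochronic cells. Leaving out 1 library gave 0 to 1 in old against young isochronic cells, in the 2 comparisons of old heterochronic with old isochronic and old unjoined cells and in old against young heterochronic cells. In both comparisons of lodged cells it gave 0, apart from the fit without OHETB6X replicate 2, which leaves 1 lodged library. The share of all genes called in the fits that left out 1 library is not given here, so these counts cannot be set against it. The counts of the other 6 comparisons stayed at 0 under the alternatives run.

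Of 1044 alternative values of the 52 named pairs of gene and comparison, 8 had the opposite sign, 6 of them with columns matched by description. These 6 were Gbp2 (0.11) and Isg15 (0.15) in old heterochronic minus old isochronic cells, Oasl2 (-0.013) in lodged minus old heterochronic cells, and Usp18 (0.10), Gbp2 (0.10) and Adar (0.0080) in lodged minus old isochronic cells. The others were Gbp10 (0.042) in old heterochronic minus old unjoined cells without the 3 OB6CNT libraries, and Ifih1 (-0.015) in that comparison without OHETB6 replicate 2, where leaving out single libraries ranged up to 0.31. The cause was not tested. The difference in the mean log2 CPM of the 39 genes moved on the 19 libraries from -0.23 to -0.37 in old heterochronic minus old isochronic cells, from -0.20 to -0.32 against old unjoined cells and from -0.05 to -0.18 against young heterochronic cells. Over all 29 libraries without Gbp10, a set chosen after seeing the data, the 3 differences were -0.16, -0.09 and 0.04.

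No paired analysis was possible because the labels give no replicate numbers that pair libraries across groups. Description matching ran on 29 columns. Fits of 1 strain or of the compared conditions alone were not run where a condition had too few libraries or where strain and condition coincide. For genes at a few CPM, such as Gbp10, Oas2 and Usp18, depth limits what a difference shows.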
